A study of Homo sapiens with 9 samples.

Results

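The syndecan family has 4 members in humans, SDC1, SDC2, SDC3 and SDC4, and all 4 had a row among the 38478 gene rows of an RNA sequencing table from OPM-1 cells. OPM-1 is a human line of multiple myeloma, a cancer of plasma cells. The 4 genes were taken by symbol. SDC2 was chosen by its measured rise in cells with both guides, so its values in those comparisons are given as a description without a test, and SDC1 is set beside it as the plasma cell surface marker CD138. Of the 4 members, 3 passed the filter on low counts. SDC4 did not, having 0 reads in every library.

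There were 3 groups of 3 libraries. The gFBXW7_gKMT2D cells carried RNAs against FBXW7 and KMT2D together. The gFBXW7 cells carried an RNA against FBXW7 alone, and the gLuc cells carried one against luciferase, a gene that human cells lack. All groups share the OPM-1 background, a genotype given as WT in the labels, growth in RPMI with 10% FBS and stable expression of the RNA. By the labels, the gFBXW7_gKMT2D cells differ from the gFBXW7 cells by the second RNA. Any difference in how the cells of each group were derived cannot be told apart from it. The labels do not say how the RNAs act on their targets, or whether the cells were pools or clones. FBXW7 is the substrate-binding subunit of a ubiquitin ligase, and KMT2D is a histone methyltransferase that acts on lysine 4 of histone H3. The labels describe the 3 libraries of a group as independent biological replicates, and p-values here measure the spread between them.

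Syndecans are single-pass membrane proteins whose outer part carries heparan sulfate chains and, in some members, chondroitin sulfate chains. The chains bind growth factors, chemokines and matrix proteins and present them to signalling receptors, the short cytoplasmic tail binds PDZ proteins and the cytoskeleton, and proteases can shed the outer part. SDC1 is the main syndecan of plasma cells and epithelia, SDC2 is typical of fibroblasts and endothelium, SDC3 of neurons, and SDC4 is widespread and sits in focal adhesions.

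Library totals were between 16337492 and 27076242 reads, both extremes being in the gFBXW7_gKMT2D group (replicates 3 and 2). TMM scaling factors, which correct for the make-up of each library, were between 0.854 in gFBXW7_gKMT2D replicate 3 and 1.09 in replicate 2 of the same group. The targeted transcripts did not separate the groups: FBXW7 averaged 54.3 ± 15.1 TMM-scaled CPM, the reads per unit of library size, in gFBXW7_gKMT2D cells, 54.5 ± 1.09 in gFBXW7 cells and 50.2 ± 3.21 in gLuc cells, and KMT2D 61.2 ± 40.8, 57.7 ± 8.28 and 67.9 ± 32.7 CPM in the same order (SD, n = 3 each). Plasma cell identity was checked with 12 markers other than SDC1. Of these, 11 passed the filter and none was called, led by the immunoglobulin joining chain JCHAIN at 6402 ± 1015 RPKM in gFBXW7_gKMT2D cells, 6804 ± 164 RPKM in gFBXW7 cells and 6899.7 ± 444 RPKM in gLuc cells, and by the secretory regulator XBP1 at 464 ± 37.5, 537 ± 40.3 and 550.3 ± 48.7 RPKM. The marker CD27 was near 0. Over all tested genes, edgeR called 0.0528% for gFBXW7_gKMT2D against gLuc, 0.0603% against gFBXW7 and 0% for gFBXW7 against gLuc. With shares this low, the lack of calls among the markers is not read as a result.

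The SDC1 and SDC4 promoters are printed because these members stand at the ends of the family's order of levels, SDC1 with the most transcript per length and SDC4 with no read. Each sequence runs 5′ to 3′ on the gene's strand, as RefSeq's promoter window across a transcript start, on GRCh38.p14. Capitals mark the GC box GGGCGG and the TATA core TATAA on either strand, including matches that overlap or adjoin one another.
SDC1 promoter, chr2:20225426-20225725, minus strand: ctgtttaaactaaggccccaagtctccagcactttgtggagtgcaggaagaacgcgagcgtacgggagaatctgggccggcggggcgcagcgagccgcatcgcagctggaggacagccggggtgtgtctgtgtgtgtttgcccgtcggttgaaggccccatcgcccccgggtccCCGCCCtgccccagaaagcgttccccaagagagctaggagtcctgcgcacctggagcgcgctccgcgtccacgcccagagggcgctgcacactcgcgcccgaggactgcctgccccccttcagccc
SDC4 promoter, chr20:45348375-45348674, minus strand: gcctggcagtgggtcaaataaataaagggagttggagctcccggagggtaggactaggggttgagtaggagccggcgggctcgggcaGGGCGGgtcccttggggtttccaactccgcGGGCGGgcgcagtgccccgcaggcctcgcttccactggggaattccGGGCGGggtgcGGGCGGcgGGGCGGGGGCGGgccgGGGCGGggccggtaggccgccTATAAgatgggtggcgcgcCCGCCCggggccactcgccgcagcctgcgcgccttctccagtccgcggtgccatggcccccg
The SDC1 window held 1 GC box and no TATA core, at a GC content of 67.7% with 27 CpG dinucleotides. The SDC4 window held 8 GC boxes and 1 TATA core, at a GC content of 74.0% with 33 CpG. A second RefSeq start of SDC1, with the window chr2:20225081-20225380, had 1 GC box and 2 overlapping TATA matches, and the SDC3 window, chr1:30908709-30909008, had 6 GC boxes and no TATA core. None of the 4 windows held the E-box CACGTG. Among 35116 RefSeq promoter windows of the same length, 45.0% held a GC box, 20.4% a TATA core and 7.26% an E-box, with a median GC content of 58.7% and a median of 14 CpG. These matches describe the letters of the windows and were not tied to any binding measurement.

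By RPKM, which divides reads by transcript length and library total, the members kept the order SDC1, SDC2, SDC3, SDC4 in all 9 libraries. SDC1 lay among the top 3.33% to 6.75% of genes with reads in each library. SDC2 lay among the top 26.4% to 30.6% in gFBXW7_gKMT2D libraries, 44.6% to 51.8% in gFBXW7 libraries and 54.0% to 55.3% in gLuc libraries. The closest neighbours in the order were SDC2 and SDC3 in gLuc cells, where SDC2 had 0.976 to 1.20 RPKM and SDC3 0.509 to 0.753 RPKM, so that even there the ranges did not overlap.

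**Figure D1:**
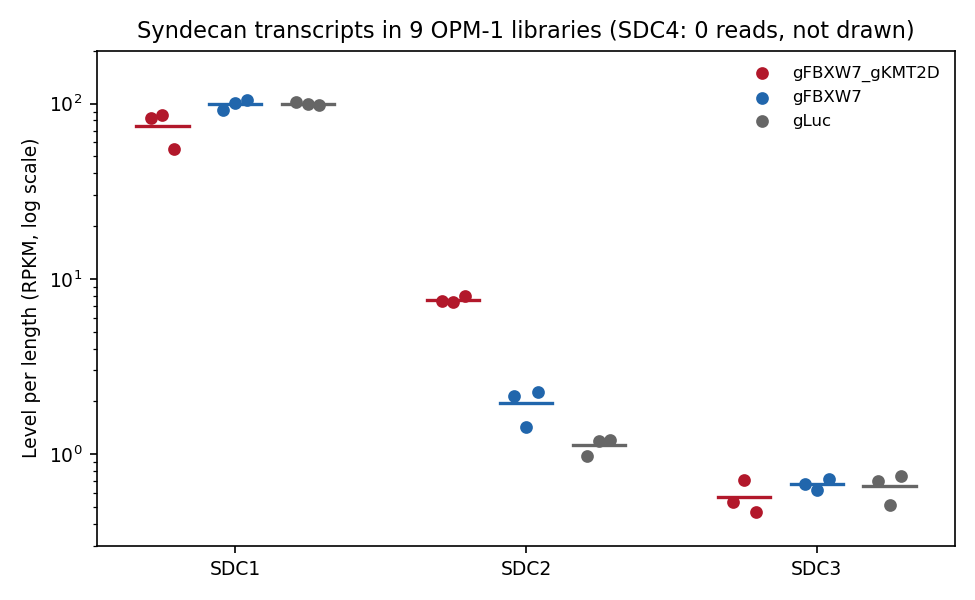
Level per transcript length (RPKM, log axis) of SDC1, SDC2 and SDC3 in each library, with points for libraries and a bar for the group mean (n = 3 each). SDC1 sits between 55.1 and 104 RPKM throughout, while SDC2 stands at 7.34 to 8.02 RPKM in gFBXW7_gKMT2D cells, 1.43 to 2.27 RPKM in gFBXW7 cells and 0.976 to 1.20 RPKM in gLuc cells.

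SDC2 encodes syndecan-2, a heparan sulfate carrier that in other cells takes part in adhesion, fibronectin matrix assembly and growth factor signalling. The gene (ENSG00000169439.11) lies on the plus strand at chr8:96493351-96611780 of GRCh38. Its read counts were 493, 734 and 484 in gFBXW7_gKMT2D cells, 151, 89 and 161 in gFBXW7 cells and 70, 75 and 85 in gLuc cells. Each gFBXW7_gKMT2D library had more SDC2 reads than any library of the other groups, although replicate 3 was the shallowest of all 9. On the TMM-scaled level the values were 27.7, 24.9 and 34.7 CPM in gFBXW7_gKMT2D cells, 8.16, 5.29 and 8.20 CPM in gFBXW7 cells and 3.71, 4.24 and 4.14 CPM in gLuc cells. No pair of groups overlapped, and gFBXW7 replicate 2 was the one closest to the gLuc libraries. The separation of the gFBXW7_gKMT2D libraries rests on the values that chose SDC2. Among all tested genes, 3.28% were higher without overlap against gLuc and 4.35% against gFBXW7.

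The mean level of SDC2 was 7.62 ± 0.357 RPKM in gFBXW7_gKMT2D cells, 1.95 ± 0.451 RPKM in gFBXW7 cells and 1.12 ± 0.126 RPKM in gLuc cells (SD, n = 3 each). The fitted difference of gFBXW7_gKMT2D against gLuc was 2.85 on the log2 scale (SE 0.21), a 7.20-fold higher level. Against gFBXW7 it was 2.01 (SE 0.20), or 4.02-fold. These 2 differences chose the gene and carry no test. As background, edgeR called 7 of 13262 tested genes (0.0528%) in the first comparison and 8 (0.0603%) in the second, and nothing about SDC2 is read from these counts. Bulk RNA cannot tell apart more SDC2 transcript per cell and more cells that make it. Without gFBXW7_gKMT2D replicate 3 the differences were 2.71 against gLuc and 1.87 against gFBXW7.

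With the FBXW7 guide alone SDC2 was 1.79-fold the gLuc level, a log2 difference of 0.84 (SE 0.21, 95% interval 0.38 to 1.31). The interval is not adjusted for the number of genes tested. That difference did not pass the threshold: edgeR's quasi-likelihood test gave an adjusted p of 0.96, by Benjamini-Hochberg over all tested genes. SDC2 was higher in 3 of 3 gFBXW7 libraries. In this comparison 0% of tested genes were called, with 209 at an unadjusted p under 0.05 and 1 called by DESeq2. Groups that did not overlap in the higher direction were found for 4.37% of tested genes here. The comparison shares its gLuc libraries with the one that chose SDC2, so it is not separate evidence.

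**Figure D2:**
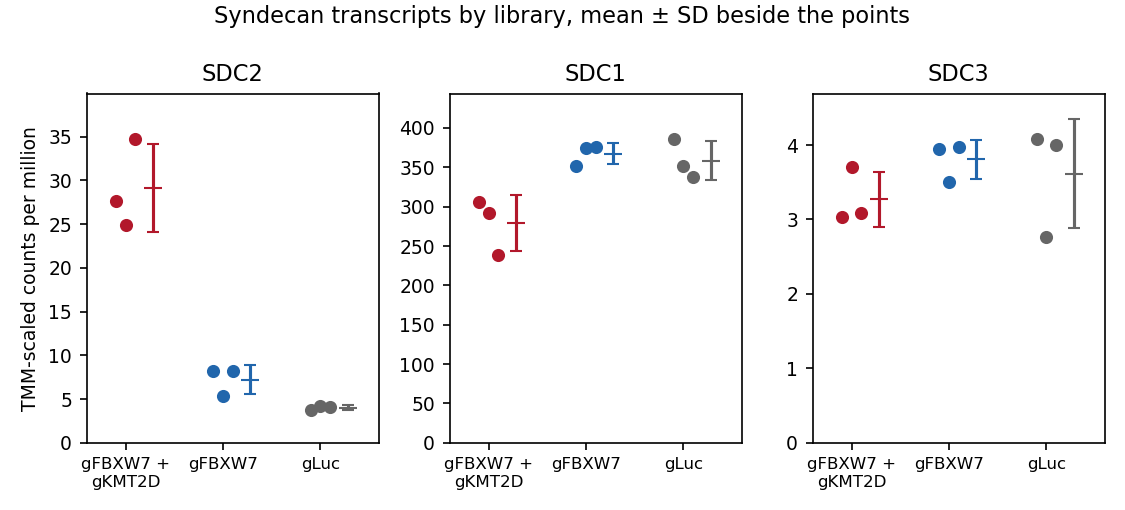
TMM-scaled CPM of SDC2, SDC1 and SDC3, with a point for each library and the group mean ± SD beside them (n = 3 each). The gFBXW7_gKMT2D libraries lie at 24.9 to 34.7 CPM for SDC2, above all others, and at 239 to 306 CPM for SDC1, below all others, while for SDC3 the 3 groups overlap.

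SDC1 encodes syndecan-1, the CD138 antigen by which plasma cells and myeloma cells are recognised, and it was the most abundant member. The gene (ENSG00000115884.10) lies on the minus strand at chr2:20200797-20225433. Its counts were 5453, 8612 and 3328 in gFBXW7_gKMT2D cells, 6517, 6290 and 7381 in gFBXW7 cells and 7282, 6216 and 6936 in gLuc cells. On the TMM-scaled level this was 306, 292 and 239 CPM in gFBXW7_gKMT2D cells, 352, 374 and 376 CPM in gFBXW7 cells and 386, 351 and 338 CPM in gLuc cells. All 3 gFBXW7_gKMT2D libraries lay below all 6 others, with replicate 3 the lowest, and the gFBXW7 and gLuc libraries overlapped.

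The mean SDC1 level was 74.7 ± 17.0 RPKM in gFBXW7_gKMT2D cells, 99.3 ± 6.12 RPKM in gFBXW7 cells and 99.3 ± 2.04 RPKM in gLuc cells (SD, n = 3 each). Against gLuc the log2 difference was -0.36 (SE 0.14, 95% interval -0.67 to -0.05), 0.78 times the gLuc level. The interval is not adjusted for the number of genes tested, and the difference did not pass the threshold in edgeR's quasi-likelihood test (adjusted p = 0.90). Against gFBXW7 it was -0.40 (SE 0.14, 95% interval -0.70 to -0.09), with an adjusted p of 1.0 in the same edgeR fit. Without gFBXW7_gKMT2D replicate 3 these differences were -0.26 and -0.29. Lower values without overlap occurred in 3.69% of tested genes against gLuc and in 5.20% against gFBXW7, so the separation of SDC1 is one that many other genes share. Between gFBXW7 and gLuc the SDC1 difference was 0.04 (SE 0.14, 95% interval -0.27 to 0.34, edgeR adjusted p = 0.97), an interval that covers folds of 0.828 to 1.27.

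The balance between the members put the SDC2 values on a scale that library scaling cannot move, since both genes are read in the same library. SDC2 made up 8.24%, 7.80% and 12.6% of the summed syndecan RPKM in gFBXW7_gKMT2D cells, 2.25%, 1.39% and 2.12% in gFBXW7 cells and 0.946%, 1.19% and 1.20% in gLuc cells. The high share in gFBXW7_gKMT2D replicate 3 went with its low SDC1 level. The summed RPKM of the family was 90.9, 94.1 and 63.6 in gFBXW7_gKMT2D cells, 95.2, 103 and 107 in gFBXW7 cells and 103, 100.5 and 99.5 in gLuc cells. SDC1 exceeded SDC2 by 11.1, 11.7 and 6.87 times in gFBXW7_gKMT2D libraries, by 43.1, 70.7 and 45.8 times in gFBXW7 libraries and by 104, 82.9 and 81.6 times in gLuc libraries. SDC1 thus remained the main syndecan transcript in every library, at 86.7% or more of the sum.

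**Figure D3:**
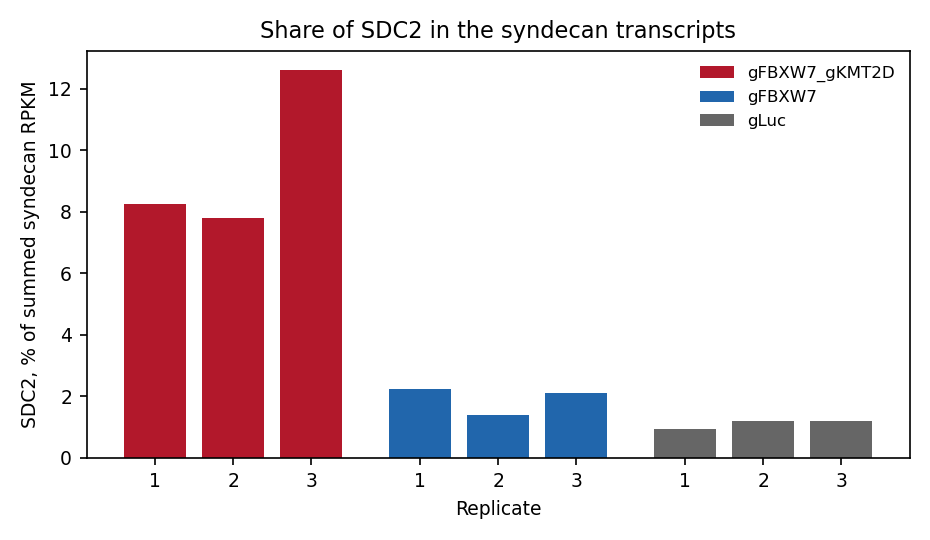
SDC2 as a percentage of the summed RPKM of the 4 syndecans, with 1 bar for each library. The share is 7.80% to 12.6% in gFBXW7_gKMT2D cells, 1.39% to 2.25% in gFBXW7 cells and 0.946% to 1.20% in gLuc cells.

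SDC3 encodes syndecan-3, best known from neurons, and had the lowest level of the 3 members with reads. The gene lies on the minus strand at chr1:30869467-30908761. Counts were 54, 109 and 43 in gFBXW7_gKMT2D cells, 73, 59 and 78 in gFBXW7 cells and 77, 49 and 82 in gLuc cells, and the levels averaged 0.571 ± 0.127, 0.672 ± 0.0492 and 0.654 ± 0.129 RPKM in the same order (SD, n = 3 each). The groups overlapped in every comparison. The log2 difference was -0.14 against gLuc (SE 0.20, 95% interval -0.58 to 0.30, edgeR adjusted p = 0.90) and -0.21 against gFBXW7 (SE 0.20, 95% interval -0.65 to 0.23, edgeR adjusted p = 1.0). For gFBXW7 against gLuc it was 0.07 (SE 0.20, 95% interval -0.37 to 0.51, edgeR adjusted p = 0.96). Over the 3 comparisons the intervals covered folds between 0.636 and 1.43.

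SDC4, the focal adhesion syndecan on the minus strand at chr20:45325288-45348424, had 0 reads in all 9 libraries. A floor of 3 counts allows up to 0.0424 to 0.0703 RPKM per library, a limit for counting error only. It was one of 12580 rows with no read. The nearest tested gene, SYS1, begins 13513 bases away and had 3509 reads over the 9 libraries. Whether the annotation used for counting bears on the absence of SDC4 reads was not tested.

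The likeness of other genes to each member was measured as the root mean square difference of log2 CPM over the 9 libraries, after centring each gene, among 9976 genes with a mean log2 CPM of at least 2 (9977 for SDC3). For SDC2 the nearest was AFAP1L2, an actin-associated adaptor, at 0.65 against a median of 1.22 over all genes. AFAP1L2 had 24.3, 27.3 and 20.7 CPM in gFBXW7_gKMT2D cells, 8.37, 9.88 and 9.53 CPM in gFBXW7 cells and 8.69, 8.65 and 9.70 CPM in gLuc cells. Like SDC2 it was highest in all 3 gFBXW7_gKMT2D libraries, but its gFBXW7 and gLuc values overlapped. The choice by likeness to SDC2 favours such a pattern, so it is not separate evidence. Among all tested genes, 3.28% were higher without overlap against gLuc and 4.35% against gFBXW7. Next came KCTD17 at 0.85, CSNK2B, the regulatory subunit of casein kinase 2, at 0.87, and LOC102724993 and LINC00342 at 0.92 each. Such distances grow with a member's own spread over the libraries, an SD of log2 CPM of 1.27 for SDC2 and 0.223 for SDC1. They are therefore not compared between members.

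For SDC1 the 5 nearest genes were the splicing factor subunit SF3B2 at 0.059, CNTROB at 0.061, the membrane scaffold FLOT2 at 0.062, TNIP1 at 0.066 and the proprotein convertase PCSK7 at 0.067, against a median of 0.294. Each of the 5 had its lowest value in gFBXW7_gKMT2D replicate 3, as SDC1 did, a likeness that the choice by profile favours. For SDC3 they were PPM1H, C22orf34, FAM69B, FLJ32255 and the retinoid receptor RXRA, at 0.125 to 0.130, against a median of 0.287. These distances are descriptions over 9 libraries that share depth and scaling, and the distances of SDC2 rest on the values that chose it.

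Neighbouring genes were read for each member within 1 Mb on either side. Of the 7 genes around SDC2, 4 were tested and none was called by edgeR, beside at most 0.0603% of all tested genes in any comparison. CPQ, which encodes carboxypeptidase Q and begins 33447 bases beyond the end of SDC2, at chr8:96645227-97149654, had 80, 149 and 60 reads in gFBXW7_gKMT2D cells, 42, 50 and 63 in gFBXW7 cells and 42, 45 and 50 in gLuc cells. On the TMM-scaled level all 3 gFBXW7_gKMT2D libraries, at 4.49, 5.06 and 4.31 CPM, exceeded the gFBXW7 libraries at 2.27, 2.97 and 3.21 CPM and the gLuc libraries at 2.23, 2.54 and 2.44 CPM. Higher values without overlap were found for 3.28% of tested genes against gLuc and 4.35% against gFBXW7.

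The CPQ difference was 0.95 against gLuc (SE 0.19, edgeR adjusted p = 0.35) and 0.72 against gFBXW7 (SE 0.18, edgeR adjusted p = 0.75). DESeq2's Wald test called the first (adjusted p = 0.026) and not the second (adjusted p = 0.30). On the other side PTDSS1, a phosphatidylserine synthase at chr8:96261715-96336995, differed by -0.00 against gLuc and 0.02 against gFBXW7. The other tested neighbours on that side, MTERF3 and UQCRB, differed by 0.27 and 0.52 against gLuc, with no call by edgeR. Around SDC1, 7 of 16 genes were tested, around SDC3 5 of 20 and around SDC4 23 of 67. None of these was called in any comparison, beside at most 0.0603% of all tested genes. The nearest of these neighbours had log2 differences between gFBXW7_gKMT2D and gLuc of 0.13 for LAPTM4A and -0.17 for PUM2 beside SDC1, and 0.05 for STK4 and 0.29 for SYS1 beside SDC4.

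**Figure D4:**
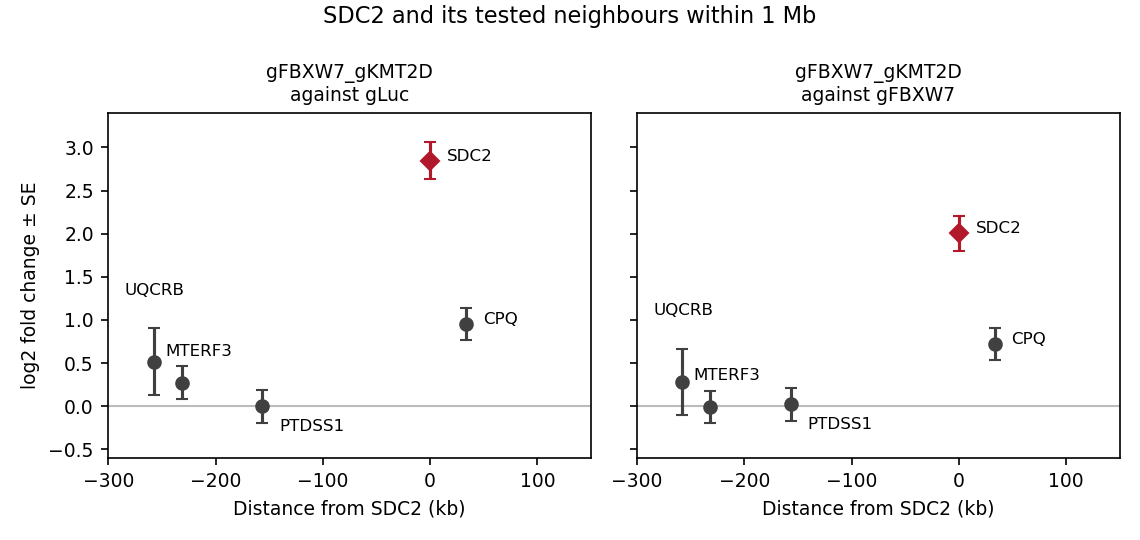
Log2 fold change with its SE for SDC2 (diamond) and its 4 tested neighbours (circles), against distance from SDC2 in kb, for gFBXW7_gKMT2D against gLuc (left) and against gFBXW7 (right). SDC2 stands at 2.85 and 2.01, CPQ at 0.95 and 0.72, and PTDSS1 at -0.00 and 0.02.

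The proteins that build, cut and bind syndecans were read from 7 lists with 122 genes, of which 77 passed the filter. None of the 77 was called in any of the 3 comparisons by edgeR. At most 0.0603% of all tested genes were called in any of them, so this lack of calls is not read as a result. At an unadjusted p under 0.05 there were 5 (6.49%, against 3.61% of all tested genes) for gFBXW7_gKMT2D against gLuc, 4 (5.19%, against 4.22%) against gFBXW7 and 4 (5.19%, against 1.58%) for gFBXW7 against gLuc. The median log2 difference of the 77 was -0.08, 0.00 and -0.06 in those comparisons, beside 0.00, 0.02 and -0.00 over all tested genes.

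Of the 12 enzymes that assemble the linker and backbone of heparan sulfate, 11 were tested, with a median of -0.03 against gLuc and -0.05 against gFBXW7. B3GAT3, the glucuronyltransferase that completes the linker, was the most abundant at 37.8 ± 7.53 RPKM in gFBXW7_gKMT2D cells, 38.5 ± 3.85 RPKM in gFBXW7 cells and 33.1 ± 7.65 RPKM in gLuc cells. The linker galactosyltransferase B3GALT6 had 16.6 ± 2.40, 19.0 ± 2.34 and 16.7 ± 3.31 RPKM, and the xylose kinase FAM20B had 12.3 ± 4.83, 13.6 ± 1.4 and 15.7 ± 1.96 RPKM in the same order of groups (SD, n = 3 each). For each of these 3 enzymes the ranges of the groups overlapped.

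Of 18 genes that sulfate or edit the chains, 7 were tested, and NDST4, HS6ST2, HS6ST3 and HS3ST6 had no read. The 2-O-sulfotransferase HS2ST1 had 14.1 ± 4.56 RPKM in gFBXW7_gKMT2D cells, 13.5 ± 0.729 RPKM in gFBXW7 cells and 15.6 ± 2.91 RPKM in gLuc cells. The 6-O-sulfotransferase HS6ST1 had 10.1 ± 2.53, 11.9 ± 0.849 and 11.6 ± 0.842 RPKM, and HS3ST3B1, which adds the rarer 3-O-sulfate, had 2.71 ± 0.473, 2.36 ± 0.204 and 2.58 ± 0.294 RPKM. The list's median was -0.02 against gLuc and 0.08 against gFBXW7. For chondroitin sulfate, which SDC1 also carries, 13 of 16 genes were tested, with medians of -0.10 and 0.04. Its chain polymerase genes CHPF and CHSY1 had 31.1 ± 9.98 and 26.9 ± 10.6 RPKM in gFBXW7_gKMT2D cells, 37.5 ± 1.59 and 30.0 ± 3.33 RPKM in gFBXW7 cells and 36.7 ± 3.16 and 33.3 ± 5.45 RPKM in gLuc cells. The epimerase DSEL differed by 0.38 against gLuc (edgeR adjusted p = 0.90) at levels under 1 RPKM.

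Shedding of syndecan ectodomains depends on metalloproteases and is held back by their inhibitors. Of 19 such genes 8 were tested, and MMP1, MMP2, MMP3 and MMP7 had no read. HPSE, the heparanase that cuts the chains, reached at most 0.0110 RPKM in any library. The sheddase ADAM10 had 16.8 ± 5.61 RPKM in gFBXW7_gKMT2D cells, 17.5 ± 1.76 RPKM in gFBXW7 cells and 21.4 ± 5.13 RPKM in gLuc cells. The inhibitor TIMP2 had 68.5, 79.6 and 69.7 CPM in gFBXW7_gKMT2D cells, 90.8, 91.4 and 92.8 CPM in gFBXW7 cells and 90.8, 91.9 and 96.3 CPM in gLuc cells. The gFBXW7_gKMT2D libraries lay below all others for TIMP2, with log2 differences of -0.36 against gLuc (edgeR adjusted p = 0.90) and -0.34 against gFBXW7 (edgeR adjusted p = 1.0), neither past the threshold. Separation in the lower direction, as for TIMP2, was found for 3.69% of tested genes against gLuc and 5.20% against gFBXW7. The list's medians were -0.03 and -0.02.

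Among 16 partners of the cytoplasmic tail 14 were tested, with medians of -0.16 against gLuc and -0.03 against gFBXW7. Syntenin (SDCBP), the PDZ protein that binds every syndecan tail and is named here for that role, had 19.6, 19.1 and 19.6 RPKM in gFBXW7_gKMT2D cells, 21.4, 18.4 and 22.6 RPKM in gFBXW7 cells and 19.1, 20.8 and 21.3 RPKM in gLuc cells. Synbindin (TRAPPC4), first described as a ligand of the SDC2 tail, had 84.2 ± 27.5, 89.0 ± 12.9 and 70.2 ± 16.3 RPKM, and the membrane-actin linker EZR 106 ± 17.5, 119 ± 11.3 and 126 ± 2.17 RPKM. The kinase FYN had 19.8, 17.4 and 17.4 CPM in gFBXW7_gKMT2D cells, 17.5, 16.3 and 16.3 CPM in gFBXW7 cells and 13.9, 14.5 and 11.6 CPM in gLuc cells. FYN was above the gLuc libraries in both guide groups, by 0.45 (edgeR adjusted p = 0.90) and 0.32 (edgeR adjusted p = 0.96), without passing the threshold. Such separation was found for 3.28% of tested genes with both guides and 4.37% with the FBXW7 guide alone. Both comparisons share the gLuc libraries, so they are not separate evidence.

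The list of ligands and co-receptors gave 18 tested genes of 25, with medians of -0.15 against gLuc, 0.03 against gFBXW7 and -0.21 for gFBXW7 against gLuc. TNFRSF17, the B cell maturation antigen, had 398 ± 137 RPKM in gFBXW7_gKMT2D cells, 439.7 ± 74.9 RPKM in gFBXW7 cells and 386 ± 106 RPKM in gLuc cells, and the growth factor receptor FGFR3 had 334 ± 132, 341 ± 21.5 and 402 ± 52.1 RPKM. HGF, a growth factor that SDC1 binds, had 5.0, 5.70 and 5.53 CPM in gFBXW7_gKMT2D cells, 4.86, 4.64 and 4.48 CPM in gFBXW7 cells and 6.25, 6.27 and 9.55 CPM in gLuc cells. All 3 gLuc libraries lay above the others for HGF, replicate 3 the farthest, with differences of -0.44 for gFBXW7_gKMT2D (edgeR adjusted p = 0.90) and -0.66 for gFBXW7 (edgeR adjusted p = 0.96). Lower values without overlap occurred in 3.69% of tested genes for gFBXW7_gKMT2D against gLuc and in 4.48% for gFBXW7 against gLuc. The gene for the HGF receptor, MET, had no read.

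Of 16 other genes for heparan sulfate or related proteoglycans 6 were tested, with medians of -0.05 against gLuc and -0.03 against gFBXW7. Serglycin (SRGN), an intracellular granule proteoglycan, exceeded SDC1 in level, at 194 ± 68.6 RPKM in gFBXW7_gKMT2D cells, 208 ± 41.7 RPKM in gFBXW7 cells and 187 ± 30.3 RPKM in gLuc cells. The hyaluronan receptor CD44 had 5.70 ± 1.31, 5.61 ± 0.741 and 6.23 ± 1.04 RPKM. AGRN, a basement membrane proteoglycan, was under 0.11 RPKM in every library and differed by -1.03 against gFBXW7 (edgeR adjusted p = 1.0). The glypican gene GPC4 had no read.

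**Figure D5:**
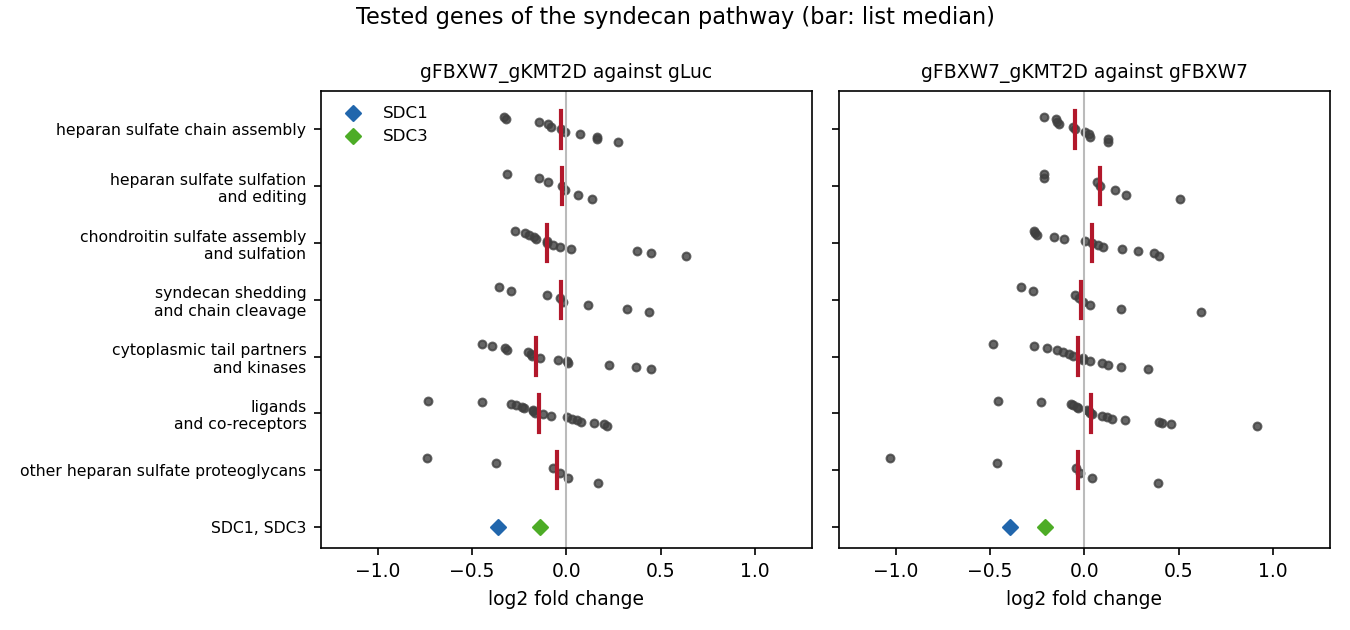
Log2 fold changes of the 77 tested genes of the 7 pathway lists, with 1 point for each gene and a bar at the list median, for gFBXW7_gKMT2D against gLuc (left) and against gFBXW7 (right). List medians lie between -0.16 and -0.02 on the left and between -0.05 and 0.08 on the right, with SDC1 at -0.36 and -0.40 and SDC3 at -0.14 and -0.21 in the bottom row.

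Markers of other cell types, among them those in which SDC2 is usually found, were near 0 in every group. Of 18 markers of fibroblasts, endothelium, epithelium, myeloid cells and T cells, 1 was tested and was not called. At most 0.0603% of all tested genes were called in any comparison, so nothing is read from this. The summed level of the 18 was 0.207 to 0.354 RPKM in gFBXW7_gKMT2D cells, 0.366 to 0.544 RPKM in gFBXW7 cells and 0.437 to 0.649 RPKM in gLuc cells. COL1A2, DCN, LUM, CDH5, EPCAM, KRT8 and CD2 had no read in any library. The most abundant of the 18 were the endothelial marker PECAM1, at 0.132 ± 0.0496, 0.182 ± 0.0342 and 0.237 ± 0.0681 RPKM in the order of groups above, and the T cell marker CD3E, at 0.0286 ± 0.0255, 0.120 ± 0.0177 and 0.107 ± 0.0347 RPKM. PECAM1 rested on 10 to 43 reads per library, so no order of the groups is read from these sums. The part of such markers in the SDC2 values was not tested. Of 8 mature B cell markers 3 were tested and none was called, beside the same share of all tested genes, at most 0.0603%. The summed level of the 8 was 1.65 to 2.16 RPKM in gFBXW7_gKMT2D cells, 1.5 to 1.77 RPKM in gFBXW7 cells and 1.47 to 2.37 RPKM in gLuc cells. The most abundant were the transcription factor BACH2, at 1.63 ± 0.255, 1.42 ± 0.0529 and 1.63 ± 0.426 RPKM in the same order, and the complement receptor CR2. CR2 had 0.103 ± 0.0202 RPKM in gFBXW7_gKMT2D cells, 0.164 ± 0.0787 RPKM in gFBXW7 cells and 0.215 ± 0.0197 RPKM in gLuc cells, a log2 difference of -1.0 for gFBXW7_gKMT2D against gLuc (SE 0.39, edgeR adjusted p = 0.90).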

How the data were processed

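Poly(A) RNA of 9 OPM-1 libraries was sequenced with strand-specific kits, per the labels' protocols. The submitters' processing notes name GRCh38, STAR, featureCounts, Trimmomatic and DESeq2, without versions. The deposited table holds whole-number counts per gene, not normalised, and RPKM values that the authors derived from them, per the file headers. Recomputed RPKM differed by at most 8.5e-07 of its value. 1 unnamed total row was left out.

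The counts of all 9 libraries entered one quasi-likelihood fit by group (edgeR 4.0.16, R 4.3.3), after filterByExpr with a minimum count of 10 and TMM scaling. p-values were Benjamini-Hochberg adjusted over all 13262 tested genes, with a threshold of 0.05 for a call. Intervals use the t quantile of the fit, for each gene alone, and are not adjusted for the number of genes tested. DESeq2 1.42.0 and limma 3.58.1 on log2(RPKM + 1) or log2(RPKM + 0.1) were alternatives. Nearest profiles used log2 CPM with a prior count of 2. Fits were tested on simulated data. Coordinates come from GENCODE on GRCh38 and promoters from RefSeq on GRCh38.p14.

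The members, lists and tests were chosen with earlier results of these data known. The rule named the members, the targeted genes, the 2 most abundant genes of each list, the 1 of smallest p of each pathway list and any called there, the 5 nearest profiles of each member, and its nearest tested or called neighbours. SDCBP, HPSE, CD27, MTERF3, UQCRB and genes without reads were named outside it, with their values known. One neighbour is not reported here. Replicate numbers did not pair the samples.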

Additional observations from a re-analysis of the deposited data

How the results depend on the processing

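SDC2 in gFBXW7_gKMT2D cells stayed within its spread under every alternative except limma on log2(RPKM + 1), where the differences were 2.02 against gLuc and 1.56 against gFBXW7. For gFBXW7 against gLuc, SDC2 was 0.47 in that fit and 0.74 to 1.01 with 1 library left out, uncalled throughout. A pseudocount of 1 compresses low levels by construction. SDC1 and SDC3 stayed lower in gFBXW7_gKMT2D cells and uncalled throughout. For gFBXW7 against gLuc, where SDC1 and SDC3 hardly differed, signs turned: SDC1 was -0.0017 with either limma fit and -0.0123 to 0.0930 with 1 library left out, and SDC3 was -0.0831 to 0.168 with 1 library left out, both negative ends coming without a gLuc library (replicate 3 for SDC1, replicate 2 for SDC3). CPQ against gLuc was called by DESeq2 (0.96). Its adjusted p was 0.24 to 1.0 under the other alternatives.

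Counts of called genes depended on the fit. For gFBXW7_gKMT2D against gLuc, 7 in the main analysis, there were 21 without a filter, 24 with DESeq2, 4 with limma at either pseudocount, 2 with those 6 libraries alone and 2 to 8 with 1 library left out. For gFBXW7_gKMT2D against gFBXW7, 8 in the main analysis, there were 5 with upper quartile scaling, 33 without a filter, 32 with DESeq2, 3 with limma at either pseudocount, 0 with those 6 libraries alone and 0 to 7 with 1 library left out. For gFBXW7 against gLuc, DESeq2 called 1. With the replicate number as a block the counts were 2, 2 and 0, and SDC1 differed by -0.36 and -0.40. After each gene's log2 CPM was centred on its group mean, same-numbered libraries of different groups correlated between -0.586 and 0.454. Differently numbered libraries correlated between -0.735 and 0.72, so the numbers are not taken to pair samples. SDC3 rests on 43 to 109 reads per library, and SDC4 on 0.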
